A study of Bos taurus with 6 samples.

Results

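CT55, TEX15 and DPPA2 are 3 genes of the germ line, taken by name from a table of 12826 genes counted by RNA-seq in 6 libraries from cattle (Bos taurus) embryos at the blastocyst stage. The blastocysts were produced in vitro from slaughterhouse material and collected at day 7, and each library was made from polyadenylated RNA of pooled embryos. Of these pools, 3 had received beta-hydroxybutyrate (BHB), a ketone body made by the liver in fasting, and 3 untreated pools were the controls. No strain, transgene or other agent is named for either group, and the sources used here state neither the dose of BHB nor its timing nor the size of a pool. The genes were chosen by values of these libraries. CT55 and TEX15 were among the genes with the smallest p between BHB and control, and DPPA2 had a small p in the authors' deposited table. Their differences between the groups are therefore described here and not tested.

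Genes of this kind are active in germ cells and are kept silent in most somatic tissues, in many cases by DNA methylation of their promoters and by repressive chromatin complexes. The preimplantation embryo removes much of its DNA methylation and transcribes a number of them before lineages are set. CT55 is a cancer testis antigen gene on the X chromosome, so called because such genes are mostly seen in testis and in tumours. TEX15 encodes a large protein that male germ cells need for meiotic recombination and for silencing of transposons guided by piRNAs, the small RNAs of the germ line. DPPA2 encodes a protein with a DNA-binding SAP domain that forms a heterodimer with DPPA4. In embryonic stem cells this pair holds developmental promoters open to activation and guards them against DNA methylation, and it acts upstream of genes of genome activation.

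Total counts ran from 6440732 to 8176648 per library. Control and BHB libraries fell into 3 pairs in the model behind the authors' deposited table, and the pairs differed from each other in many genes. In edgeR's quasi-likelihood test with treatment in the model, 524 of 12732 tested genes (4.12%) differed between pairs at an adjusted p under 0.05, and without pair 1 this was 63 of 12665 (0.497%). Without pairing, the same test called 0 of 12732 genes (0%) between BHB and control, with 347 (2.73%) at an unadjusted p under 0.05. DESeq2's Wald test called 6 and limma-voom 0. In pools of embryos, fewer cells that express a gene and less RNA per cell cannot be told apart. The labels do not tell whether pools were separate collections of embryos, and the spread between libraries may be in part technical.

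CT55 was counted 49, 63 and 77 times in control libraries 1 to 3 and 134, 103 and 123 times in BHB libraries 1 to 3. CPM are counts scaled to a fixed library total, after each total is corrected by a TMM scaling factor. The level of CT55 was 6.55, 8.35 and 9.04 CPM in the 3 controls against 18.1, 14.3 and 17.9 CPM in the 3 BHB libraries. All BHB libraries lay above all controls, and the gap was wider than the counting error. The highest control had an exact 95% Poisson interval of 7.13 to 11.3 CPM and the lowest BHB library one of 11.6 to 17.3 CPM. These intervals cover counting error only, and CT55 was chosen by this contrast, so the gap is no test of it. The group means were 7.98 ± 1.29 CPM (SD, n = 3) without and 16.8 ± 2.16 CPM (SD, n = 3) with BHB, a log2 fold change of 1.07 (SE 0.24). Within pairs the BHB library held 2.76, 1.71 and 1.98 times the control level. CT55 was the steadiest of the 3 genes inside a group. Its coefficient of variation was 16.2% in controls and 12.9% with BHB, where counting alone gives 12.8% and 9.17%.

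TEX15 was counted 21, 23 and 35 times in control libraries and 120, 41 and 92 times in BHB libraries. The levels were 2.81, 3.05 and 4.11 CPM in controls and 16.2, 5.68 and 13.4 CPM in BHB libraries 1 to 3. The groups again did not overlap, but BHB library 2 lay close to the controls. Its Poisson interval of 4.07 to 7.70 CPM overlapped those of all controls, which ended at 4.29, 4.58 and 5.72 CPM, while BHB libraries 1 and 3 had intervals that began at 13.4 and 10.8 CPM. The means were 3.32 ± 0.69 CPM (SD, n = 3) without and 11.8 ± 5.44 CPM (SD, n = 3) with BHB, a log2 fold change of 1.81 (SE 0.41). The BHB library of a pair held 5.76 times the control level in pair 1, 1.86 times in pair 2 and 3.27 times in pair 3. The spread was uneven between the groups. In controls the coefficient of variation of 20.9% was near the 19.9% that counting gives, and with BHB it was 46.3% against 11.7%.

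DPPA2 did not follow the other pair of genes. It was counted 741, 1082 and 1005 times in control and 525, 1072 and 877 times in BHB libraries. In CPM the controls were at 99.0, 143 and 118 and the BHB libraries at 70.7, 148 and 128. The lowest and the highest of the 6 libraries both belonged to the BHB group, and the groups overlapped over the whole control range. The means were 120.1 ± 22.3 CPM (SD, n = 3) and 115.7 ± 40.3 CPM (SD, n = 3), a log2 fold change of -0.05 (SE 0.26). That sign is not stable. The log2 fold change was 0.20 (SE 0.19) without BHB library 1, 0.09 (SE 0.29) without control library 2 and 0.013 when libraries were scaled by their totals alone.

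**Figure D1:**
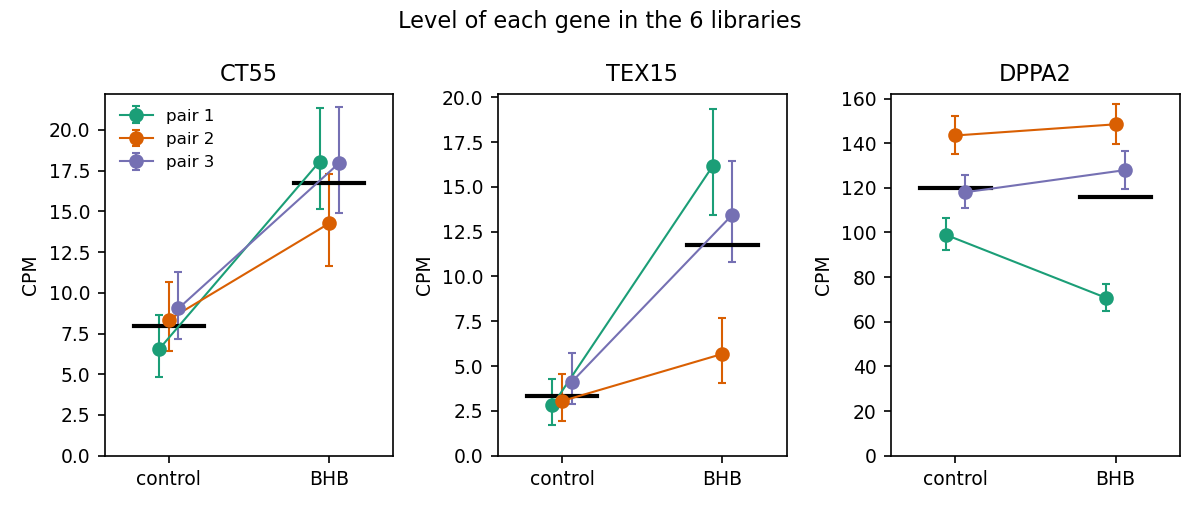
Levels of CT55, TEX15 and DPPA2 in CPM (vertical axes, each from 0) in control and BHB libraries. Points are libraries with exact 95% Poisson intervals, coloured lines join the libraries of a pair and black bars are group means (n = 3). CT55 and TEX15 are higher in the BHB library of all 3 pairs, with pair 2 the least apart, while DPPA2 is ordered by pair.

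Of the 3 genes, CT55 and TEX15 had BHB libraries entirely above controls, as had 4.06% of all tested genes. BHB was higher in 3 of 3 pairs for the same 2 genes, as in 14.5% of tested genes. Both counts restate the contrast by which the genes were chosen. With the pair as a term, DESeq2's Wald test called 35 genes, 0.339% of those it tested, and edgeR's quasi-likelihood test called 0. TEX15 was among the 35, which also restates the choice.

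Differences between pairs were computed over all genes. They enter the p of the authors' deposited table, in which DPPA2 had its small p, so the values of the 3 genes between pairs are a description and no independent test. For CT55 and TEX15 the adjusted p in edgeR's quasi-likelihood test was 0.818 and 0.357. DPPA2 had an adjusted p of 0.0577 in that test and 0.0121 in DESeq2's likelihood ratio test of the pairs, on either side of 0.05. Its mean over both libraries of a pair was 84.9 CPM in pair 1, 146 CPM in pair 2 and 123 CPM in pair 3. Control and BHB libraries had the same order of pairs. Pair 1 was the lowest, and without it the adjusted p in edgeR was 0.378, against 0.0941 without pair 2 and 0.0202 without pair 3. Of 12 tested markers of trophectoderm, the outer layer of the blastocyst, edgeR called 5 between pairs, beside 4.12% of all tested genes, among them the keratin genes KRT8 and KRT18. The summed level of the 12 was 18341 CPM without and 14429 CPM with BHB in pair 1. It was 16414 and 12252 CPM in pair 2, and 11161 and 8777 CPM in pair 3. Most of each sum came from KRT8 and KRT18. Log2 fold changes of BHB over control were positive in 3 of the 12 and negative in 9, beside 49.1% positive of all tested genes. Between BHB and control edgeR called 0 of the 12. Of 8 tested epiblast markers 0 were called between pairs and 0 between BHB and control. Their sum ran from 1004 to 1146 CPM in controls and from 1047 to 1115 CPM in the 3 BHB libraries. ZFP42, POU5F1 and DPPA3 made up most of it, so the sum says little of the other markers. BHB libraries lay entirely above controls in 1 of the 8 and entirely below in 1, beside 4.06% and 3.78% of all tested genes. The part of these cell types in the DPPA2 values was not tested.

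DPPA4, the partner of DPPA2 in the heterodimer and the next tested gene after it in the RefSeq gene order, had the most similar profile among 11094 genes with a symbol and a mean log2 CPM of at least 1. It was at 44.5, 64.8 and 51.7 CPM in control libraries 1 to 3 and at 29.2, 67.2 and 53.1 CPM in BHB libraries 1 to 3. The order of the 6 libraries was the same for both genes. Pearson's r of log2 CPM with DPPA2 was 0.99 over 6 libraries and 0.97 over the 4 left without control 1 and BHB 1, the libraries farthest from the median. The ratio of DPPA2 to DPPA4, not corrected for transcript length, was 2.23, 2.21 and 2.28 in controls and 2.42, 2.21 and 2.41 with BHB. The ratio thus varied far less than either gene, with 2.24 ± 0.038 (SD, n = 3) in control and 2.35 ± 0.12 (SD, n = 3) in BHB libraries. Between pairs DPPA4 had an adjusted p of 0.0784 in edgeR and 0.0483 in DESeq2's likelihood ratio test, and 0.0288 in edgeR without pair 3. It was picked out here for its likeness to DPPA2, so these values are a description too.

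**Figure D2:**
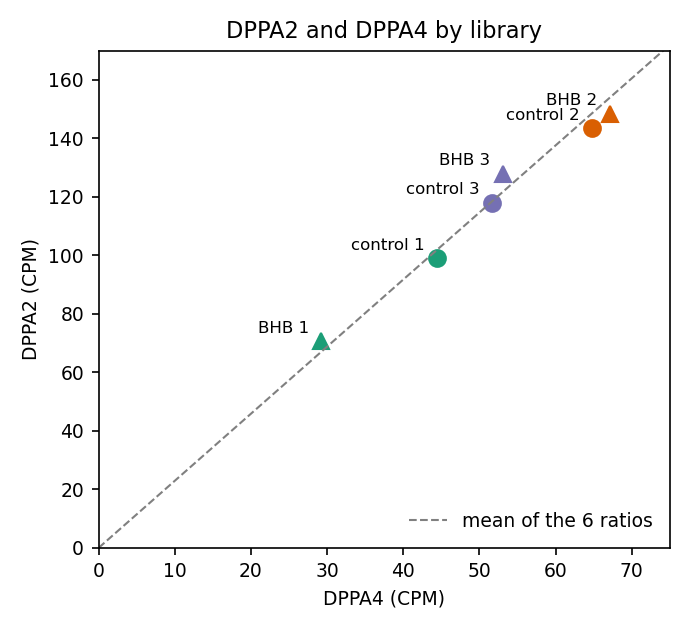
DPPA2 against DPPA4 in CPM, both axes linear and from 0. Each point is 1 library, with circles for control, triangles for BHB and colours for the 3 pairs, and the dashed line has the mean of the 6 ratios as its slope. The points rank identically on both axes, from BHB 1 at 70.7 CPM of DPPA2 to BHB 2 at 148 CPM.

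The other genes most like DPPA2 over the 6 libraries were MRPS15, a mitochondrial ribosomal protein gene, OTUB1, which encodes a deubiquitinase, SLITRK5, a neuronal membrane protein gene, and SCOC, which acts in autophagy, all at r = 0.99. The 5 genes most like CT55 were ZNF335, a zinc finger regulator gene, SNX15, a sorting nexin gene, SCNM1, a splicing factor gene, CHI3L2, a chitinase-like protein gene, and KLF17, with r from 0.97 to 0.99. In KLF17, a transcription factor gene of the early embryo, controls were at 15.4, 17.9 and 22.3 CPM and BHB libraries at 34.2, 24.2 and 33.0 CPM. Among the genes most like TEX15 were TXNDC11, a thioredoxin domain protein gene, ZNF618, SCML2 and WDR20, with r from 0.98 to 0.99. SCML2, which encodes a Polycomb protein known from the male germ line, was at 3.61, 3.45 and 3.99 CPM in the 3 controls. In the 3 BHB libraries it was at 5.52, 4.02 and 5.40 CPM. The low value of BHB library 2 follows from choosing SCML2 by its likeness to TEX15. Between CT55 and TEX15 themselves r was 0.95, which placed TEX15 as number 20 among the genes most like CT55. Each of these profiles over 6 libraries shares the contrast of treatment and the differences between pairs, so the correlations describe these libraries.

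The authors' deposited table gives CT55, TEX15 and DPPA2 log2 fold changes of 1.07, 1.72 and -0.11 with the sign turned to BHB over control. Its p-values of 0.0128, 0.000296 and 0.00136 are from a joint test of pair and treatment, as a refit of the counts showed, and so do not isolate BHB. In the authors' deposited table the adjusted p was 0.122 for CT55, 1 for TEX15 and 0.0232 for DPPA2. The gene with the smallest of the 3 p-values thus had the largest adjusted p, and the gene with a log2 fold change near 0 was the 1 gene of the 3 past 0.05. Over all genes, 646 of 12826 (5.04%) were past 0.05 in the authors' deposited table. TEX15, with a mean count of 55.9 in the authors' deposited table, lay just under a boundary. The 3979 genes with the lowest mean count, up to 56.5, all had a deposited adjusted p of 1, and 71 of them would be under 0.05 if the deposited p-values were adjusted by the Benjamini-Hochberg method over all genes. CT55, at a mean count of 91.8, lay above it. Among those 3979 genes the p-values of the joint test went down to 1.2e-14. The adjusted p of 1 there, that of TEX15 included, thus does not reflect the size of p. How the deposited p-values were adjusted is not stated in the labels or headers.

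**Figure D3:**
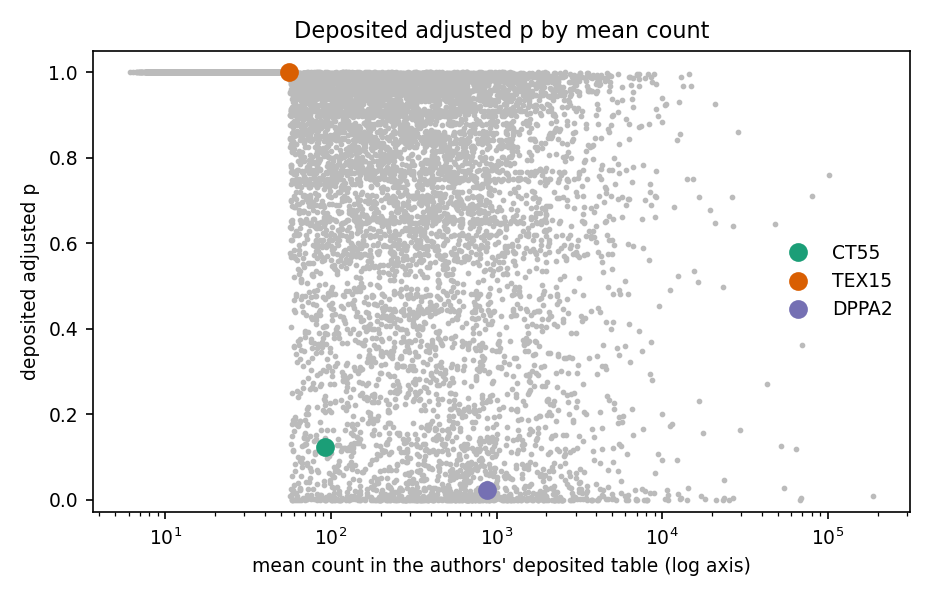
Adjusted p (vertical axis, linear) against mean count (horizontal axis, log scale) for all 12826 genes of the authors' deposited table, with the 3 genes in colour. Below a mean count of about 56.5 all values are 1, and TEX15 at 55.9 is at the right end of that line.

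Other germ cell genes were read from 4 lists, for the piRNA pathway, meiosis, germ cell identity and cancer testis genes. Together, and without the 3 genes, the lists held 184 gene names, some of them for the same gene, and 84 genes among them were tested. edgeR called 0 of the 84 between BHB and control, against 0% of all genes, and 4 had an unadjusted p under 0.05. DESeq2's Wald test and limma-voom also called 0 of them. Log2 fold changes were positive in 56 of 84 (66.7%), with a median of 0.10, where 49.1% of all tested genes were positive with a median of -0.005. Scaled by library totals alone, these shares were 76.2% and 60.7%. BHB libraries lay entirely above controls in 8 of the 84 and entirely below in 2, beside 4.06% and 3.78% of all tested genes. The log2 fold changes of CT55 (1.07) and TEX15 (1.81) compare with a highest value of 1.32 among the 84, and DPPA2 lay below their median. That highest value was of MEI4 (SE 0.55), a gene at a mean of only 0.87 CPM in controls and 2.21 CPM with BHB.

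The meiosis list had 15 of 24 tested members positive (median 0.09) and held the 4 genes with an unadjusted p under 0.05, which did not pass the adjusted test. RAD21L1, a meiotic cohesin subunit gene, was at 4.54, 7.42 and 5.64 CPM in the 3 controls against 10.8, 14.5 and 7.15 CPM in the 3 BHB libraries (log2 fold change 0.88, SE 0.34). MEI4, needed for meiotic DNA breaks, was at 0.40, 0.93 and 1.29 CPM and at 3.10, 1.94 and 1.60 CPM (1.32, SE 0.55). SYCP1, which forms the transverse filaments of the synaptonemal complex, was at 1.07, 1.46 and 2.00 CPM and at 3.50, 2.22 and 3.65 CPM (1.03, SE 0.44). MLH3, a mismatch repair protein gene of crossover formation, was at 9.35, 8.09 and 9.04 CPM and at 15.2, 10.5 and 13.4 CPM (0.56, SE 0.24). In MLH3 and SYCP1 the lowest BHB library was number 2, as in CT55 and TEX15, whereas in MEI4 and RAD21L1 it was number 3. TRIP13, an ATPase gene of meiosis and mitosis, and SPDYA, a telomere-bound kinase activator gene of meiosis, had 0.53 (SE 0.25) and 0.74 (SE 0.40). The members with a negative log2 fold change were not among the 6 genes with the smallest p. SYCP3, another synaptonemal complex gene, was at 110.0 ± 25.3 CPM in the 3 controls against 115 ± 13.7 CPM in the 3 BHB libraries.

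In the piRNA pathway list 12 of 17 members were positive (median 0.20). GTSF1, a PIWI cofactor gene, had the smallest p, with 264, 229 and 242 CPM in the 3 controls against 285, 278 and 315 CPM in the 3 BHB libraries (log2 fold change 0.25, SE 0.12). TDRD9, an RNA helicase gene, lay on the other side at -0.42 (SE 0.22). HENMT1, the piRNA methyltransferase gene, was at 0.65 (SE 0.44), PIWIL2 at 0.25 (SE 0.19) and TDRKH, a Tudor protein gene, at 0.20 (SE 0.19). MAEL, a transposon repressor gene, was at 89.6 ± 10.2 and 103 ± 28.2 CPM. DDX4, the germ cell helicase VASA, was at 36.0 ± 15.9 CPM in the 3 controls and 29.8 ± 7.42 CPM in 3 BHB libraries. It was 1 of 2 members that differed between pairs (adjusted p = 0.0453, edgeR), out of 17, beside 4.12% of all tested genes. PIWIL4 and SPOCD1, which act with TEX15 in transposon silencing, were not found by name among the 12826 genes.

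The germ cell identity list had 11 of 15 members positive (median 0.11). NR6A1, an orphan nuclear receptor gene, was at 35.9, 45.1 and 53.9 CPM in the 3 controls against 31.1, 35.6 and 34.3 CPM in the 3 BHB libraries (log2 fold change -0.42, SE 0.19). TFAP2C, a factor of germ cells and trophectoderm, had 0.37 (SE 0.18) and PRDM14, a factor of germ cells and epiblast, 0.35 (SE 0.25). LIN28B and NANOS1, both RNA-binding protein genes, had 0.54 (SE 0.41) and 0.61 (SE 0.47), and TEX30 had -0.15 (SE 0.17). DPPA3, known as STELLA, was at 216 ± 17.8 and 234 ± 30.8 CPM, and DAZL, an RNA-binding protein of germ cells, at 1.46 ± 0.82 and 1.57 ± 1.43 CPM.

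Among cancer testis genes 20 of 31 were positive (median 0.08), against a log2 fold change of 1.07 in CT55. SPAG6, a sperm axoneme gene, had 0.98 (SE 0.45), CEP55, a gene of the final step of cell division, 0.26 (SE 0.14) and MAGED2 -0.53 (SE 0.26). Whether reads were shared between MAGED2 and other MAGE genes was not tested.

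**Figure D4:**
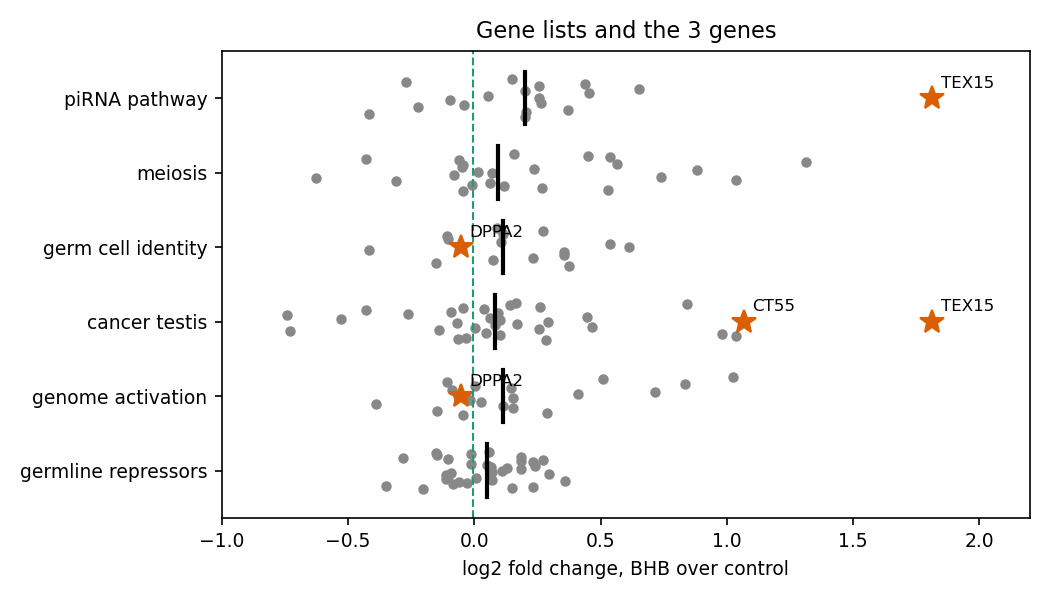
Log2 fold change of BHB over control (horizontal axis) for tested members of 6 gene lists. Grey points are genes, spread vertically for legibility, black bars are list medians without CT55, TEX15 and DPPA2, stars are those 3 genes, and the dashed line is the median of all tested genes. TEX15 at 1.81 lies right of every grey point, CT55 at 1.07 right of all but 1 and DPPA2 at -0.05 next to the dashed line.

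Genes of genome activation and genes tied to DPPA2 and DPPA4 had 12 of 19 members positive (median 0.11), with 0 called by edgeR, DPPA2 left out. The log2 fold change of KLF17 was 0.72 (SE 0.22), and ARGFX, a homeobox gene of genome activation, was at 17.4, 27.8 and 43.3 CPM in the 3 controls against 56.8, 43.6 and 80.0 CPM in the 3 BHB libraries (1.02, SE 0.33). DUXA, another such homeobox gene, was at 3.74, 6.89 and 6.81 CPM and at 17.1, 4.02 and 10.1 CPM (0.84, SE 0.49), with groups that overlapped. KLF4, the cyclin gene CCNA1 and the phosphate transporter gene SLC34A2 had 0.41 (SE 0.32), 0.51 (SE 0.48) and -0.39 (SE 0.34).

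Repressors of germline genes showed 18 of 33 members positive (median 0.05), with 0 called by edgeR. SMCHD1, a chromatin protein of X inactivation, had the smallest p at 119, 131 and 174 CPM in the 3 controls against 195, 170 and 179 CPM in the 3 BHB libraries (log2 fold change 0.36, SE 0.16). E2F6 and PCGF6, subunits of the Polycomb complex that represses meiotic genes, had 0.27 (SE 0.17) and 0.29 (SE 0.22). HDAC2 and WDR5, shared by several chromatin complexes, had 0.24 (SE 0.16) and 0.23 (SE 0.16). The histone methyltransferase gene SETDB1 was at 13.0 ± 1.38 and 13.6 ± 2.53 CPM. UHRF1 and DNMT1, which maintain DNA methylation, were at 8.32 ± 1.50 and 21.7 ± 3.15 CPM in the 3 controls against 6.53 ± 0.75 and 24.6 ± 6.29 CPM in the 3 BHB libraries. UHRF1 was lower with BHB in 3 of 3 pairs, as were 15.8% of all tested genes, and did not pass. DNMT3A, which sets new DNA methylation, had -0.28 (SE 0.21). It was the 1 member of 33 that differed between pairs (adjusted p = 0.0409, edgeR), beside 4.12% of all tested genes. These are RNA levels and measure neither protein nor methylation.

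**Figure D5:**
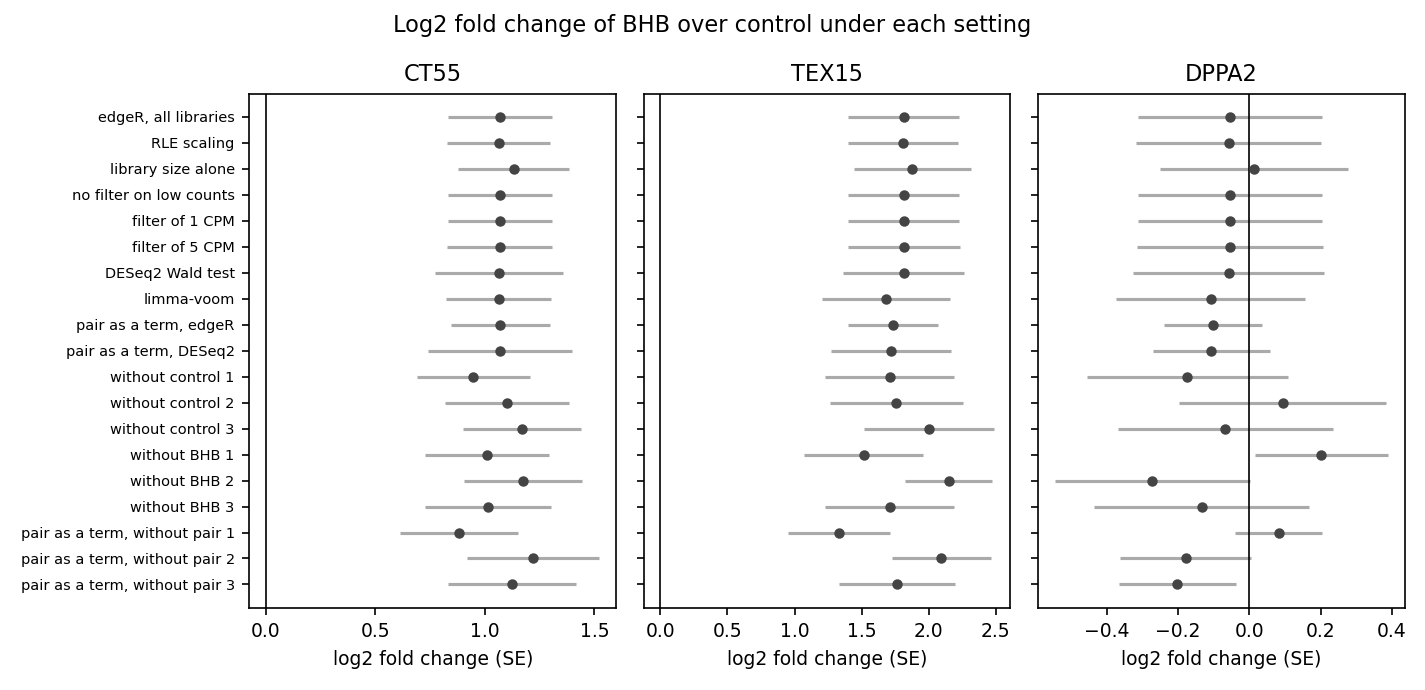
Log2 fold change of BHB over control with its SE (horizontal axes, 1 panel per gene) under each way of processing (rows), with a line at 0. CT55 ranges from 0.88 to 1.22 and TEX15 from 1.33 to 2.15, while DPPA2 ranges from -0.27 to 0.20 across 0.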

How the data were processed

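The authors deposited whole-number counts per gene for 6 libraries and a table of their own comparison holding, for each gene, the mean count (linear signal scale), the log2 fold change with its SE, the statistic (a score) and raw and adjusted p-values. The tools were STAR, featureCounts and DESeq2, per the submitters' processing notes, with versions, genome build, annotation and strand setting not given there. Every gene of the table had at least 1 CPM in at least 3 libraries. Groups came from the treatment in the labels, and replicate numbers follow the order of deposit. Coordinates are left out for lack of a named build; gene order and older names came from the RefSeq table of ARS-UCD2.0.

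Counts were scaled with TMM and tested with edgeR 4.0.16 (quasi-likelihood, filterByExpr, 12732 genes, Benjamini-Hochberg adjustment at 0.05, R 4.3.3). DESeq2 1.42.0 and limma 3.58.1 were alternatives. Fits were tested on simulated data. DESeq2's likelihood ratio test of pair and treatment against neither gave the deposited p-values within 1e-06 in 100% of genes with control 1, 2 and 3 paired with BHB 1, 2 and 3, and in at most 0.398% with any other pairing. Within pairs, deviations from group means correlated at 0.46, 0.32 and 0.33 over genes. The pairing is not in the labels.

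The members, lists and tests were chosen with earlier results of these data known. The naming rule takes the 3 genes, 13 fixed genes, up to 6 genes of each germline list by p, up to 4 markers of each cell type by level, the 5 genes most like each member by Pearson's r of log2 CPM (prior count 2, mean log2 CPM of at least 1) and 2 neighbours on each side. One gene that the rule names is not reported here.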

Additional observations from a re-analysis of the deposited data

How the results depend on the processing

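The log2 fold changes of CT55 and TEX15 kept their sign in each of 18 alternatives. They moved by less than the spread between replicates, from 0.88 to 1.22 and from 1.33 to 2.15. Both genes were chosen by this contrast and their groups did not overlap, so the kept sign follows from the choice and is no support. The log2 fold change of DPPA2 turned to 0.013 with scaling by library totals alone and ran from -0.27 to 0.20 when 1 library was left out. It was 0.083 with the replicate block and pair 1 left out, and the cause was not tested. The count of genes called higher and lower with BHB was 0 and 0. It was 5 and 1 with DESeq2's Wald test, 17 and 18 with the replicate block in DESeq2, and 0 and 0 with the replicate block in edgeR. Leaving out 1 library or pair gave 0 to 7 higher and 0 to 9 lower. With CT55, TEX15 and DPPA2 set aside, no member of the 4 germ cell lists was called in any of the 18 alternatives. The median of these members, 0.10, ran from 0.072 to 0.20 when 1 library was left out. It reached 0.23 with the block and pair 3 left out. The adjusted p of DPPA2 between pairs was 0.0121 with DESeq2 and 0.0202 to 0.378 with 1 pair left out. A filter of 5 CPM in 3 libraries was added after seeing the data, since the planned filter of 1 CPM removed no gene. It called 0 genes between BHB and control and 356 of 9886 between pairs, against 524 of 12732. Depth limits TEX15 most, with 21 to 35 counts per control library.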

Other observations

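Control and BHB libraries overlapped in each tested neighbour of CT55 and TEX15. In the RefSeq gene order the tested neighbours of TEX15 were UBXN8 and PPP2CB on one side and WRN, a DNA helicase gene, and NRG1, a growth factor gene, on the other. Their log2 fold changes of BHB over control were -0.07 (SE 0.22), -0.12 (SE 0.17), 0.29 (SE 0.19) and 0.04 (SE 0.37), and in each of the 4 the groups overlapped. Those of CT55 were LOC101906863 at 0.99 (SE 0.89), RTL8C, a retrotransposon-derived gene, at -0.02 (SE 0.36), ZNF75D at 0.07 (SE 0.22) and LOC101902838 at 0.24 (SE 0.46), also with groups that overlapped. LOC101906863 was at 0.67, 0.13 and 1.88 CPM in the 3 controls against 2.42, 0.28 and 2.77 CPM in the 3 BHB libraries. On the side of DPPA2 away from DPPA4 lay TRAT1, at 0.03 (SE 0.21), and DZIP3, a ubiquitin ligase gene. DZIP3 was at 9.62, 10.2 and 14.6 CPM in the 3 controls against 6.74, 5.54 and 7.00 CPM in the 3 BHB libraries (-0.84, SE 0.28), with groups that did not overlap, as in 3.78% of tested genes on the lower side. Beyond DPPA4 lay LOC100337136, at -0.35 (SE 0.21), where BHB libraries also lay entirely below controls.

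Markers of other cells that a pool could hold were read as well, and their part in the values of CT55, TEX15 and DPPA2 was not tested. Of 18 oocyte marker names, some of them for the same gene, 3 genes were tested, with UCHL1, which neurons also express, the highest. The sum of the 3 ran from 20.4 to 35.7 CPM in the 3 controls and from 26.4 to 34.6 CPM in the 3 BHB libraries. The sums for 6 of 18 sperm markers ran from 35.4 to 56.2 CPM and from 30.8 to 42.3 CPM, mostly from CRISP2. The 6 tested of 16 cumulus cell markers summed to 129 to 168 CPM and to 102 to 157 CPM, mostly from HSD3B1, which trophoblast expresses too. The 1 tested of 12 leukocyte markers, CD53, was at 1.06 to 2.00 CPM and at 0.54 to 1.52 CPM. The control and BHB ranges overlapped in each of these lists. Of 12 primitive endoderm markers 11 were tested. They summed to 3198 to 3997 CPM in the 3 controls against 3273 to 3970 CPM in the 3 BHB libraries, mostly from FN1. BHB libraries lay entirely above controls in 1 of the 11 and entirely below in 1, beside 4.06% and 3.78% of all tested genes. Between pairs 3 of the 11 differed in edgeR, beside 4.12% of all tested genes.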
